A study of Homo sapiens with 4 samples.

Results

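Genes of the families that add or remove acetyl groups on histones, and of their cofactors, were examined in MDA-MB-231 Fluc cells. This is a triple-negative breast cancer cell line with an inserted luciferase gene. The genes were the rows of the deposited table whose gene symbol is that of a lysine acetyltransferase (KAT2 to KAT8, EP300, CREBBP), a subunit of an acetyltransferase complex (EP400, BRPF, JADE, ING), a nuclear receptor coactivator (NCOA), a histone deacetylase (HDAC), a sirtuin (SIRT) or a corepressor (NCOR, SIN3, RCOR). Of 13957 genes in the table, 50 were members: 9 acetyltransferases, 11 acetyltransferase complex subunits, 7 NCOA genes, 17 deacetylases and 6 corepressors. All ING genes are counted with the complex subunits, although ING1 and ING2 are found with the corepressor SIN3. No row was found for the remaining names the rule covers, SIRT4 and RCOR2. The cells had been given 50 μM cordycepin (2 libraries) or the vehicle DMSO (2 libraries) for 2 h, and libraries were made from ribosomal RNA-depleted total RNA.

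The table holds a single value of expression for each gene, the authors' mean log2 CPM (read counts scaled to the size of the library) over the libraries of both treatments. The columns of the authors' own comparison of cordycepin with DMSO were not used, so no effect of cordycepin on any of these genes is given. The levels below describe these cells over both treatments. The depth and the spread between duplicates are unknown, and no SD or test can be given. As longer genes collect more reads, genes were compared mainly after dividing by length, as CPM per kb of the union of each gene's exons. This level is given below together with its percentile among the 13922 genes whose length was found. The lowest mean log2 CPM in the table was 0.556. Percentiles and the median of all genes therefore refer to the genes with a row, not to every gene of the genome.

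Histone tails carry lysines whose positive charge is removed by acetylation, and acetylated chromatin is generally more open to transcription. Acetyltransferases of the p300/CBP, GNAT and MYST families write the mark. The enzymes that remove it are found among the zinc-dependent HDACs and NAD-dependent sirtuins. Class I HDACs work largely within corepressor complexes built on SIN3, NCOR or RCOR proteins.

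The most abundant members per length encoded the class I deacetylase HDAC1 (51.2 CPM per kb), the ferritin receptor NCOA4 (37.9) and the GNAT acetyltransferase KAT2A (27.1). The lowest were HDAC8 (0.565 CPM per kb) and KAT6B (0.576). Of the 50 members, 22 lay above the median of all genes, which was 5.25 CPM per kb, and the median member was at 4.41. By CPM per kb, 8 members were at percentile 75 or higher and 9 were below percentile 25. By definition about 25% of all genes lie in each of these ranges, and both counts are below that share of the 50 members. Member percentiles ran from 6.54 (HDAC8) to 93.0 (HDAC1). Log2 CPM per kb ran from -0.82 to 5.68 among members and from -5.57 to 12.80 among all genes. Members thus lay more toward the middle than all genes did. Together the 50 members made up 2914 CPM of a summed 1005541 CPM in the table, before division by length.

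**Figure D1:**
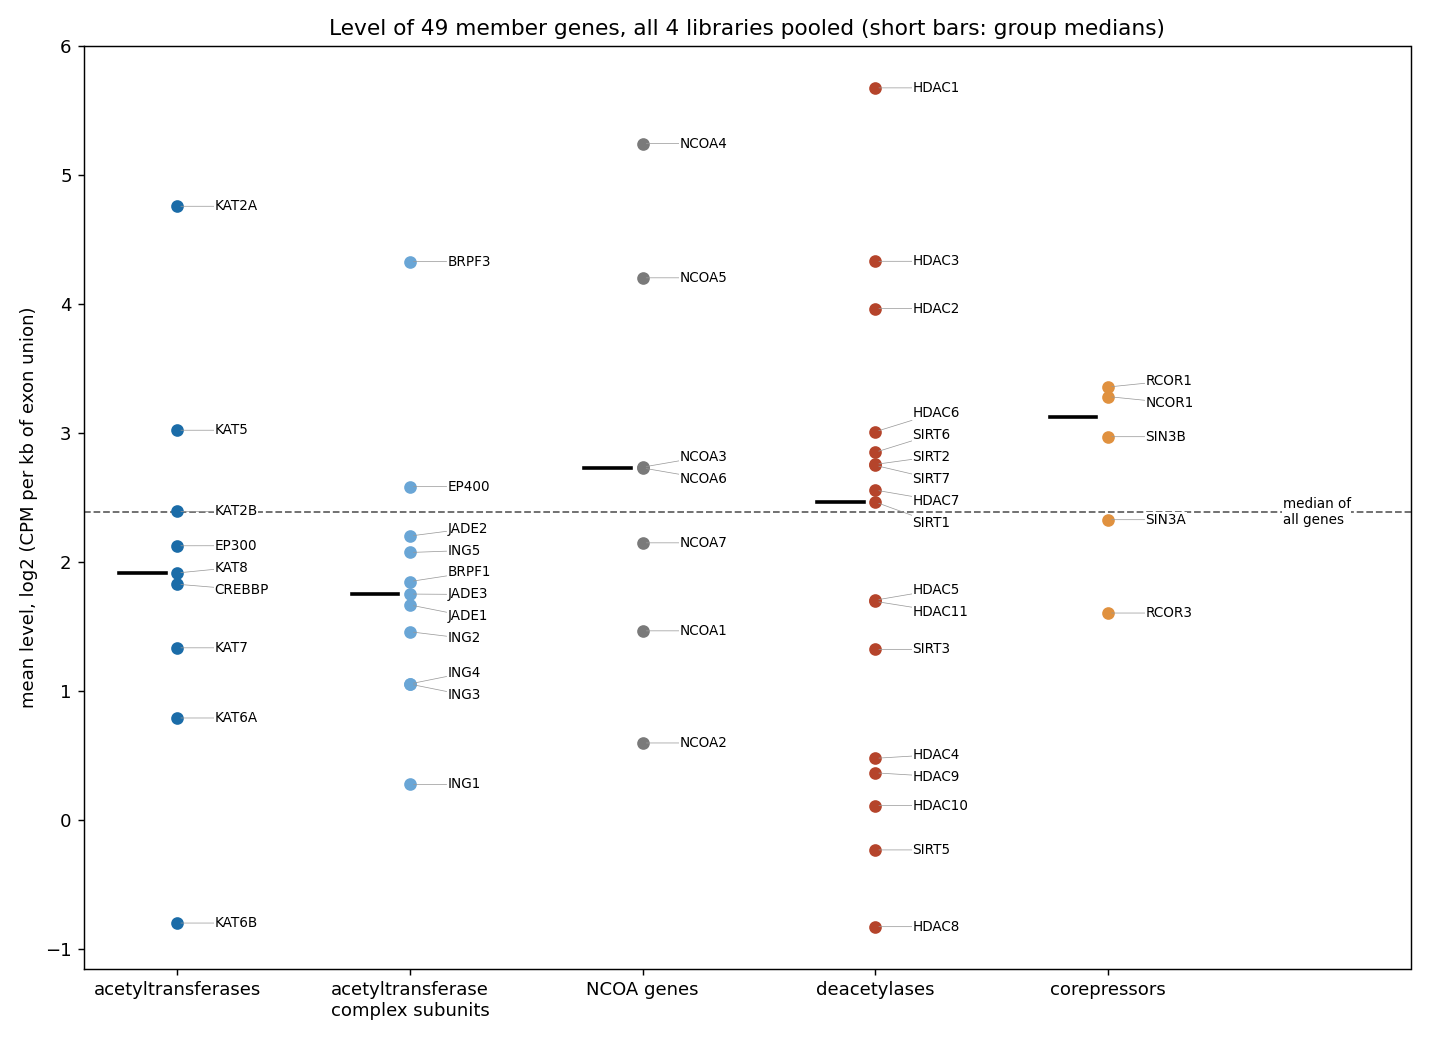
Mean level of 49 of the member genes over all 4 libraries, as log2 CPM per kb of exon union, by role. Each point is 1 gene, short bars are the medians of all members of a group and the dashed line is the median of all genes in the table; the corepressors have the highest group median and the complex subunits the lowest.

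The level of acetyltransferases was then compared with that of the deacetylases and corepressors. Not all of the deacetylases act mainly on histones, as HDAC6, HDAC10, SIRT2, SIRT3 and SIRT5 have other substrates or lie mainly outside the nucleus. The 9 acetyltransferases had a median log2 CPM per kb of 1.92, the 17 deacetylases 2.47 and the 6 corepressors 3.13. The median of acetyltransferases was therefore less than that of deacetylases, with a difference of -0.55, and than that of corepressors, with a difference of -1.21, on the log2 scale. Both differences are smaller than the spread within the 2 enzyme groups, as log2 CPM per kb ranged over 5.55 among acetyltransferases and 6.50 among deacetylases. Above the median of all genes were 3 of 9 acetyltransferases, 9 of 17 deacetylases and 4 of 6 corepressors. The direction of the difference from deacetylases depended on the length and on the genes included. It was -0.34 with the canonical transcript as length, -0.13 between means in place of medians, and 0.75, with acetyltransferases higher, without division by length. When the sirtuins were left out it turned to 0.21 per kb of exon union, where the 11 HDAC genes had a median log2 CPM per kb of 1.71 and the 6 sirtuins 2.61. Per kb of canonical transcript it stayed at -0.34 without the sirtuins, as the median of the HDAC genes was 2.88 and that of acetyltransferases 2.54. Genes are not replicates, and these differences are given as a description.

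Among acetyltransferases, KAT2A (GCN5, the catalytic subunit of the SAGA and ATAC coactivator complexes) stood highest, at percentile 86.1 of all genes. It gave 47.5% of the summed CPM per kb of exon union of the 9 genes, but 36.4% per kb of canonical transcript. Its mean log2 CPM was 6.68. Its paralog KAT2B (PCAF) was at 5.26 CPM per kb, almost at the median of the table. KAT2A shares 405 exon bases on the same strand with another annotated gene, and whether reads there were assigned to it is unknown.

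The p300/CBP pair, large acetyltransferases recruited by many transcription factors, was in the middle of the table. EP300 (chromosome 22, 41092592 to 41180077, GRCh38) had a mean log2 CPM of 5.68 and CREBBP (chromosome 16, 3725054 to 3880713) had 5.78. Divided by exon unions of 11692 and 15479 bases, these became 4.37 and 3.56 CPM per kb. The order of the pair therefore changed with the division by length, and the levels differed by a factor of only 1.23 after it.

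MYST family acetyltransferases had a median log2 CPM per kb of 1.34 over 5 genes, compared with 1.98 for the p300/CBP pair. Per kb of canonical transcript these medians were closer, 2.19 and 2.45. KAT5 (TIP60, the enzyme of the NuA4 complex) was highest of the 5 with 8.13 CPM per kb, above EP300 and CREBBP. Next among the 5 were KAT8 (MOF, which acetylates histone H4) with 3.78 and KAT7 (HBO1) with 2.53. Per kb of canonical transcript KAT5 and KAT8 were close, with 14.6 and 14.5 CPM. KAT5 shares 38.6% of its exon union with RNASEH2C on the opposite strand, and whether reads there were assigned to it is unknown. KAT6A (MOZ) and KAT6B (MORF) had 1.73 and 0.576 CPM per kb. Their exon unions are long, 24143 and 32495 bases, whereas the canonical transcripts have 9153 and 8314 bases. With the canonical lengths KAT6A moved from percentile 23.3 to 35.1 of all genes and KAT6B from 6.70 to 19.8, and KAT6A was the higher of the pair under both.

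Subunits of acetyltransferase complexes, with ING1 and ING2 counted among them, had the lowest median log2 CPM per kb, 1.75. Of the 11, 2 were above the median of all genes. The exception at the upper end was BRPF3 (chromosome 6, 36196744 to 36232790), a scaffold that pairs with KAT7, which had 20.1 CPM per kb and lay at percentile 81.7. Its relative BRPF1, a scaffold of the KAT6A and KAT6B complexes, had 3.61 CPM per kb. EP400, the ATPase of the human NuA4 complex, had 6.01 CPM per kb and JADE2 had 4.61. JADE proteins direct KAT7 to histone H4, and JADE3 and JADE1 were at 3.37 and 3.18 CPM per kb.

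ING genes encode PHD finger proteins that read methylated histone H3 and belong to either acetyltransferase or deacetylase complexes. All 5 were below the median of all genes, from 1.21 CPM per kb for ING1 to 4.22 for ING5. ING4 and ING3, subunits of the KAT7 and KAT5 complexes, were both at 2.08 CPM per kb, and ING2, which like ING1 is found with SIN3, was at 2.76. With the canonical transcript length, ING5 alone moved just past the median, to percentile 50.3.

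NCOA genes share a name, not a function, and their levels were widely spread, with a median log2 CPM per kb of 2.73. Of the p160 coactivators, which bind nuclear receptors and recruit p300/CBP, NCOA1 and NCOA2 were the lowest of the 7 genes, with 2.77 and 1.52 CPM per kb, and NCOA3 was higher, with 6.67. NCOA6, a subunit of a histone H3 methyltransferase complex, had 6.64 CPM per kb. The 2 highest, NCOA4 with 37.9 and NCOA5 with 18.4 CPM per kb, are not p160 proteins, nor is NCOA7, which had 4.44. NCOA4 targets ferritin to autophagy. It has 4 annotated processed pseudogenes, none with a row in the table, and reads may have been divided among them. NCOA4 is not alone in this, as pseudogenes of HDAC1, NCOR1, EP400 and KAT7 are annotated too. Those of EP400 and KAT7 have a row.

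Within the deacetylases, 3 of the 4 class I genes were the most abundant per kb of exon union. HDAC1 (chromosome 1, 32292083 to 32333635), HDAC3 and HDAC2 had 51.2, 20.2 and 15.6 CPM per kb and together held 61.5% of the summed CPM per kb of the 17 deacetylases. Per kb of canonical transcript HDAC1 and HDAC3 were still the highest, but HDAC6 with 28.4 CPM was above HDAC2 with 24.6. HDAC1 and HDAC2 are the paired catalytic subunits of the SIN3, NuRD and CoREST complexes, and HDAC3 is that of the NCOR complex. By mean log2 CPM, HDAC2 was above HDAC1, with 7.90 against 7.66, but its exon union of 15333 bases is much longer than the 3966 bases of HDAC1. HDAC8 was the fourth class I gene and the lowest member of all, which rests on its length. Its exon union of 22888 bases is 13.1 times its canonical transcript of 1754 bases, and with the latter it moved from percentile 6.54 to 47.2 of all genes, the only member to move by more than 25 points.

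Class IIa deacetylases, which shuttle between nucleus and cytoplasm, had a median log2 CPM per kb of 1.09 over 4 genes. HDAC7 was at 5.90 CPM per kb, HDAC5 at 3.27, HDAC4 at 1.40 and HDAC9 at 1.29. In class IIb, HDAC6, the cytoplasmic tubulin deacetylase, had 8.07 CPM per kb, and HDAC10, a polyamine deacetylase, had 1.08. Exons of HDAC10 share 2763 bases, or 55.8% of its exon union, with MAPK12 on the same strand. A further 29.0% is shared with a long noncoding RNA gene on the opposite strand. Whether reads in these stretches were assigned to HDAC10 is unknown. HDAC11, the single class IV enzyme, was at 3.24 CPM per kb.

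The highest sirtuins per kb of exon union were SIRT6 (7.23 CPM), SIRT2 (6.77), SIRT7 (6.73) and SIRT1 (5.53). Their closeness rests on this length, as per kb of canonical transcript SIRT7 had 23.9 CPM, SIRT2 22.6, SIRT6 12.4 and SIRT1 6.14. SIRT1, SIRT6 and SIRT7 are nuclear and SIRT2 is mainly cytoplasmic. The mitochondrial enzymes SIRT3 and SIRT5 were lower, with 2.51 and 0.854 CPM per kb. For SIRT5 the length in the authors' table, 6525 bases, is shorter than the union of 11295 bases used here, and it was the only member whose level changed by more than 1.5 times when the authors' lengths were used.

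Corepressors had the highest median of the groups, with 4 of 6 above the median of all genes. NCOR1, which activates HDAC3, had 9.74 CPM per kb. RCOR1 (CoREST), which joins HDAC1 and HDAC2 to the demethylase KDM1A, had 10.3 CPM per kb and RCOR3 had 3.05. The SIN3 scaffolds were closer to each other, with 7.86 CPM per kb for SIN3B and 5.03 for SIN3A, the latter just below the median of all genes.

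Next, 5 paralog pairs were compared. The widest distance was that of KAT2A over KAT2B, 5.15-fold per kb of exon union and 5.28-fold per kb of canonical transcript. HDAC1 exceeded HDAC2 by 3.27-fold and 3.89-fold on these scales, and KAT6A exceeded KAT6B by 3.01-fold and 2.03-fold. SIN3B exceeded SIN3A by 1.56-fold and 1.42-fold. Without division by length, HDAC1 was below HDAC2 and CREBBP above EP300, while the order of the other pairs was kept.

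**Figure D2:**
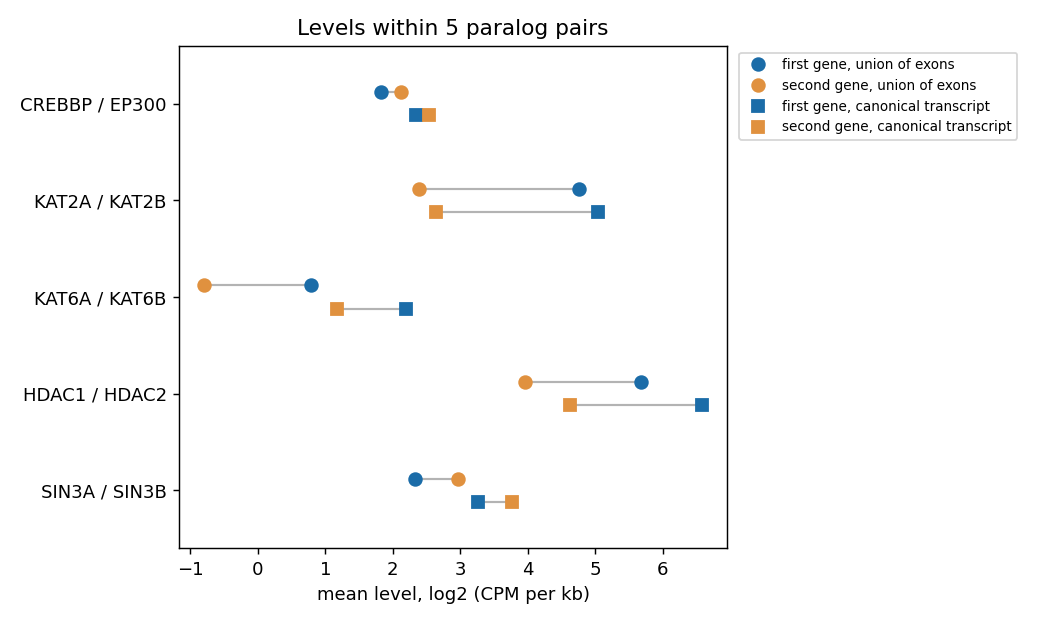
Mean level of both genes of 5 paralog pairs, as log2 CPM per kb, with circles for the union of exons and squares for the canonical transcript as length. The order within each pair is the same for both lengths, with the widest gap between KAT2A and KAT2B and the smallest between CREBBP and EP300.

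Other genes of the same complexes were examined to see whether the difference between the groups extends to them. All 19 listed subunits or enzymes of acetyltransferase complexes, such as TRRAP, EPC1 and TADA3, had a row, and 8 of them were above the median of all genes, at a list median of 2.02 log2 CPM per kb. All 24 listed genes of deacetylase complexes, such as CHD4, MTA2 and SAP18, were also in the table. Their median log2 CPM per kb was 3.36, and 17 were above the median of all genes. The listed genes of deacetylase complexes thus had the higher median of both lists. Log2 CPM per kb ranged over 4.78 in the acetyltransferase list and 4.87 in the deacetylase list, more than the distance between the medians. Both lists are selections of genes, and the difference is given as a description.

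The length given to a gene mattered for the position of single members. The exon union was a median of 1.64 times as long as the canonical transcript for the members, compared with 1.37 times for all genes. The number of members above the median of all genes was 22 with either length, but 19 of them were above it with both. KAT2B, NCOA3 and SIRT1 were above it with the exon union only, and ING5, KAT8 and SIN3A with the canonical transcript only. KAT8, SIRT2, SIRT7 and HDAC6, beside HDAC8 and KAT6B, were the members that gained more than 12 percentile points with the canonical transcript.

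**Figure D3:**
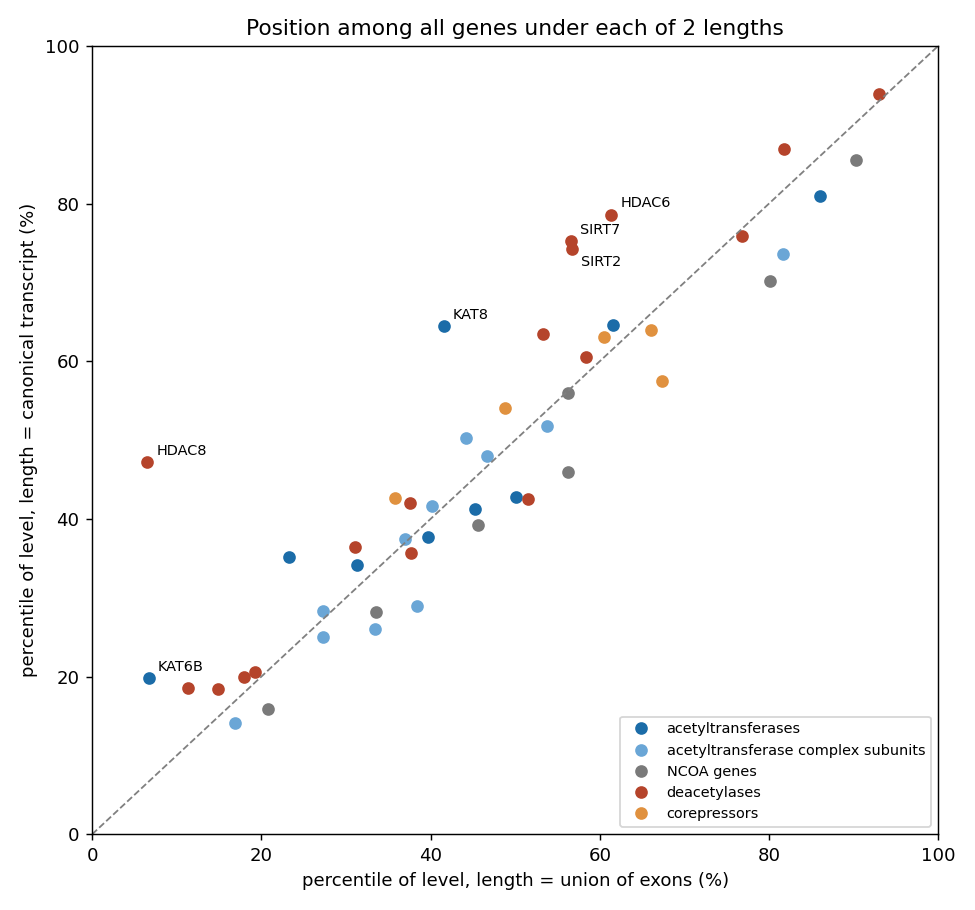
Percentile of 49 members among all genes by CPM per kb, with the union of exons (horizontal axis) or the canonical transcript (vertical axis) as length. Points are genes coloured by role and the dashed line marks equal percentiles; genes with a change above 12 points are named, and HDAC8 moves farthest, from 6.54 to 47.2.

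All 50 members are protein coding and they lie on 20 chromosomes, with at most 5 on the same chromosome (KAT2A, KAT7, HDAC5, NCOR1 and SIRT7 on chromosome 17). Exons of 25 members overlap those of another annotated gene, and for 6 of them, KAT2A, KAT7, HDAC8, HDAC10, NCOA6 and SIRT7, this is on the same strand. Overlaps on the opposite strand can also be large, as HDAC5 shares 24.0% of its exon union with G6PC3.

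Promoter sequences from RefSeq (GRCh38.p14), which run from 250 bases before to 50 bases after a start site, were found for 42 members. These 300 bases held a median of 30 CG dinucleotides among the members, compared with 27 in 9764 genes of the table, and the median GC content was 68.8% and 65.3%. The GC box letters GGGCGG (either strand) were in 69.0% of the members' windows and 71.1% of those of the table, and the TATA box letters TATAAA (either strand) in 2.38% and 5.25%. In these features members were therefore close to other genes of the table. The letters CCAAT (either strand) were in 10 of the 42 windows, or 23.8%, and in 37.1% of those of the table. None of the 7 acetyltransferase windows held CCAAT, while 6 of 15 deacetylase windows did. GGGCGG was in all 10 windows of complex subunits, some of which do not hold the canonical start of GENCODE. Of the 42 windows, 31 hold that start, and in these GGGCGG was in 67.7% and CCAAT in 22.6%. The counts are small, and a match of letters is not a binding site.

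The range among members is shown by the windows with the fewest and the most CG dinucleotides, among those of 31 members in which the canonical start of GENCODE also lies. They belong to HDAC9, with 5 in 300 bases, and NCOA1, with 55. Both genes were below the median of all genes, at 1.29 and 2.77 CPM per kb. The 250 bases before each start are given 5′ to 3′ on the plus strand, with CG in capitals, from chr7:18495499-18495748 and chr2:24491004-24491253.
HDAC9: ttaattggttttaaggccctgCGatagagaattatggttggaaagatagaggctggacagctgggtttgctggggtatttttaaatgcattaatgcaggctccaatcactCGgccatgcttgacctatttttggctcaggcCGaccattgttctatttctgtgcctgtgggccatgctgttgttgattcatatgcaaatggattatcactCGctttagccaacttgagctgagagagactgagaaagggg
NCOA1: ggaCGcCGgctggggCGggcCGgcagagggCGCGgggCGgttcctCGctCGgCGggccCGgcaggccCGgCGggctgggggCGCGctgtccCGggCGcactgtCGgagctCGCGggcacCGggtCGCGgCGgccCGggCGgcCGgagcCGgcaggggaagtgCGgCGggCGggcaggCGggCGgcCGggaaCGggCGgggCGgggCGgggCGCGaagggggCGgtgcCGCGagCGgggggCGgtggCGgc
The HDAC9 stretch holds 4 CG dinucleotides in 250 bases and the NCOA1 stretch 46.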

How the data were processed

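Stranded libraries were read at 75 bp from both ends. Mapping was to GRCh38.p13 and counting was with rsubread, both by the authors. The submitters' processing notes name hg38, TopHat, HTSeq, DESeq and Cufflinks without their roles. The authors' deposited table gives 1 mean log2 CPM per gene over the libraries and a gene length. Its fold change, F statistic, p-value and adjusted p-value columns hold the authors' comparison of cordycepin with DMSO and were neither used nor printed, so no effect of treatment was measured here. There were 0 other columns with values of single samples, so depth and replicate spread are unknown and no test was made.

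Level per length was the deposited log2 CPM less the log2 of the exon union in kb from GENCODE release 44, which has the same genome build and held 13922 (99.7%) of the gene IDs. The length in the deposited table equalled this union for 73.7% of these genes and 35 of 50 members. All members and the list of other complex genes were named by role, and the members and lists were chosen with earlier results of these data known. Named with values were every member of role groups of 10 or fewer genes, the 3 highest and lowest of larger groups, and 5 paralog pairs; further members, motifs and the 2 promoters shown were chosen after the values were seen. The values of 1 member are not reported here or plotted; it is kept in the counts and medians of its group. Alternatives were other lengths, other members of the groups, means, and protein-coding genes as background. The calculation was tested on simulated data. Python 3.11.15, numpy 2.4.6, pandas 2.3.3 and matplotlib 3.10.9 were used.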

Additional observations from a re-analysis of the deposited data

How the results depend on the processing

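The median of acetyltransferases stayed below that of corepressors under the authors' length, the canonical transcript length and no length. It also did so with added complex subunits, means and removal of members with overlapping exons. The log2 differences ranged from -0.67 to -1.29. Removal of overlapping members left only 4 acetyltransferases and 4 corepressors. The difference from deacetylases kept its direction with the authors' length, the canonical length, added subunits, means and removal of overlapping members, from -0.13 to -0.98. The value of -0.98 came from that removal, which left only 4 acetyltransferases and 5 deacetylases. The difference from deacetylases reversed to 0.75 without a length correction and to 0.21 without the sirtuins per kb of exon union. It did not reverse without them per kb of canonical transcript (-0.34, an alternative added after seeing the data). Of the 50 members, 22 were above the median of all genes with the exon union and 22 with the canonical length, 19 of them with both, 21 with the authors' length (an alternative added after seeing the data) or with protein-coding genes as background, and 34 without a length correction. A level was taken to move at a change above 1.5 times. With the canonical length, which is shorter for most genes, the level of 30 members moved, and with the authors' length that of 1. The median of all genes also rose with the canonical length, from 2.39 to 3.04 log2 CPM per kb. The share of all genes that moved was not computed, so the 30 do not set the members apart. No paired analysis was possible because no column gives the values of single libraries, and for the same reason no replicate could be left out and the test of cordycepin against DMSO was not run. Depth limits every value to an unknown extent.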
